A study of Mus musculus with 4 samples.

Results

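Heme synthesis genes were examined in fetal liver and yolk sac of the mouse: Slc25a38, Alas1, Alas2, Alad, Uros, Urod, Cpox, Ppox and Fech, 9 genes chosen by name, with earlier results of these data known, out of 21951 protein-coding genes in the annotation. Regions where transcription starts had been mapped by PRO-seq, a nuclear run-on assay that reads RNA polymerases in the act of transcribing, in 2 liver and 2 yolk sac libraries. Each library came from tissue of 6 embryos at E14.5, pooled within the tissue, with the run-on made on chromatin from frozen, powdered tissue. All embryos had C57BL/6J mothers and fathers of mixed C57BL/6J and CAST/EiJ background chosen to carry only CAST/EiJ sequence at the imprinted Dlk1/Gtl2 locus. Both tissues share this background, no group was treated or mutant, and the values are not split by allele. Each pool mixes all cell types of its organ, so a peak cannot be assigned to one of them, and a difference in the number of cells of a type cannot be told apart from a difference in transcription per cell.

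Heme is made from glycine and succinyl-CoA in a chain of enzymes that begins in the mitochondrion, passes through the cytosol and ends in the mitochondrion, where iron is inserted. The first enzyme, 5-aminolevulinate synthase, sets the rate and exists in a form used by all tissues (Alas1) and a form used by developing red cells (Alas2). The fetal liver is the main site of red cell production at mid-gestation, and the yolk sac, which makes the first red cells of the embryo, also carries blood vessels and an absorptive endoderm. Several genes of this pathway are known for having start sites used mainly in red cell precursors beside start sites used in all cells.

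The values are peaks called by dREG, a classifier that marks regions of transcription initiation at promoters and at distal sites. A promoter peak of a gene is a peak that overlaps by at least 1 bp the 500 bp on either side of any of its annotated starts. The liver lists held 24863 and 24333 peaks and the yolk sac lists 50525 and 43055. The number of reads behind a list is unknown, so a missing peak says only that none was called. With 2 libraries against 2, the smallest exact permutation p (two-sided, over 6 assignments) is 0.333, and no comparison here can pass a conventional threshold. Groups are therefore described by whether their values overlap. The tissue labels were checked on marker lists. Of 13 erythroid genes, all 13 had a promoter peak in both liver lists, and 7 had one in each yolk sac list. Of 10 yolk sac endoderm genes the numbers were 8 and 5 in liver and 10 and 10 in yolk sac, and of 8 mesenchymal genes 4 and 7 in liver and 8 and 8 in yolk sac. Hepatocyte genes did not separate the tissues, with 7 of 10 in each of the 4 lists.

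All 9 genes had a promoter peak in both liver lists and 8 of them in both yolk sac lists, a difference of 1 gene, with the same number in both libraries of a tissue (exact permutation p = 0.333, which this design cannot go below). Of protein-coding genes as a whole, 53.8% were called in all 4 libraries, 1.01% in both liver libraries only and 5.25% in both yolk sac libraries only. The exception was Alas2, which was called in liver alone. No gene of the pathway was called in yolk sac alone.

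Alas2 lies on chromosome X (150547375 to 150570638, plus strand, GRCm38). The peak at its first start ran from 150546701 to 150550602 in liver replicate 1 and from 150546801 to 150550752 in replicate 2. These peaks were 3902 and 3952 bp wide and reached 3227 and 3377 bp into the gene from its first start. The median promoter peak of genes called in all 4 libraries was 1702 and 1552 bp wide in the same lists. A second, short peak of 202 and 352 bp covered the start of a noncoding transcript 6662 bp inside the gene. In yolk sac the nearest peak to the first start was 40.2 kb away in replicate 1 and 37.8 kb away in replicate 2. Both yolk sac lists were longer than the liver lists, but the reads behind them are unknown, and the missing call was not tested against depth. The start of a microRNA gene on the other strand, Mir3620, lies 14 bp from a start of Alas2 and shares the liver peak. The deposited score of the promoter peak stood at the 95.4 percentile of the list in liver replicate 1 and the 98.1 percentile in replicate 2. The erythroid markers without a promoter peak in either yolk sac list included Gata1, Klf1, Slc4a1, Ermap and Rhag, and their part in the difference at Alas2 was not tested.

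The stretch before the Alas2 start is shown because Alas2 was the 1 gene of the 9 with no promoter peak in either yolk sac list. It is the exon-free part of the 250 bases before the RefSeq start (GRCm38.p6, chrX:150547167-150547374, plus strand), with the match to GATAA, the core that GATA factors recognise, in capitals on its reverse strand (TTATC), 86 bases before that start.
Alas2: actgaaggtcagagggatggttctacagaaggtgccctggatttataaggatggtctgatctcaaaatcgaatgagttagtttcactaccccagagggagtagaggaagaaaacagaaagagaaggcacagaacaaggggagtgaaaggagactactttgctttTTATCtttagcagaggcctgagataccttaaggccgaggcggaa
GATAA was searched on both strands in the 250 bases before each RefSeq start and is present in 22.6% of 32841 such windows. It was found in 3 of the 11 windows of the pathway, which come from 8 of the 9 genes: at Alas2, at the internal start of Uros and at Cpox. The Alas2 match also reads as AGATAA, a longer form present in 9.99% of windows. A match is a description of the letters and does not show binding.

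Alas1, the form of the enzyme used in all tissues, had peaks in both tissues that were wider in yolk sac. The percentile within the list was higher in liver at the start of its first-numbered transcript and higher in yolk sac at an internal start. The lists differ in length, and the internal peak was not ranked over the same genes in each library. The gene lies on chromosome 9 (106233455 to 106248654, minus strand). At the start of the transcript that the annotation numbers first, called the main start from here on, each list had a peak, 1052 and 952 bp wide in liver and 1452 and 1252 bp in yolk sac. The yolk sac peaks were the wider ones, without overlap. This peak also covers the start of the antisense gene 4930500F10Rik, 90 bp away. A second peak lay inside the gene near the start of a noncoding transcript 4222 bp downstream. It covered that start in both yolk sac lists, with widths of 1202 and 1102 bp, and stopped 82 and 332 bp short of it in the liver lists, with widths of 752 and 502 bp. The peak at the main start stood at percentiles 81.6 and 70.5 of the liver lists, against 59.4 and 64.6 for yolk sac. The internal peak stood at percentiles 39.9 and 29.8 in liver and 80.7 and 96.5 in yolk sac, and in yolk sac it outscored the peak at the main start. In the liver lists the order was the reverse.
The 30 bases shown for Alas1 (chr9:106247906-106247935, minus strand) hold the palindromic motif recognised by the respiratory factor NRF1, in capitals, 195 bases before one of its RefSeq starts. They lie downstream of its other RefSeq start (106247954) and were not limited to exon-free sequence. The longest exon-free run of this window is 15 bases. Of all windows, 0.783% hold the NRF1 motif, and none of the other 10 windows of the pathway does. The match was picked from a search of several motifs in each window, and not all matches are shown. Among those not shown, CACCC (in 52.0% of all windows) matched 3 times at Alas2 and 4 times at Cpox. TATAAA (in 12.4%) matched once at Alas2.
Alas1: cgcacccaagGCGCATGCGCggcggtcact

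**Figure D1:**
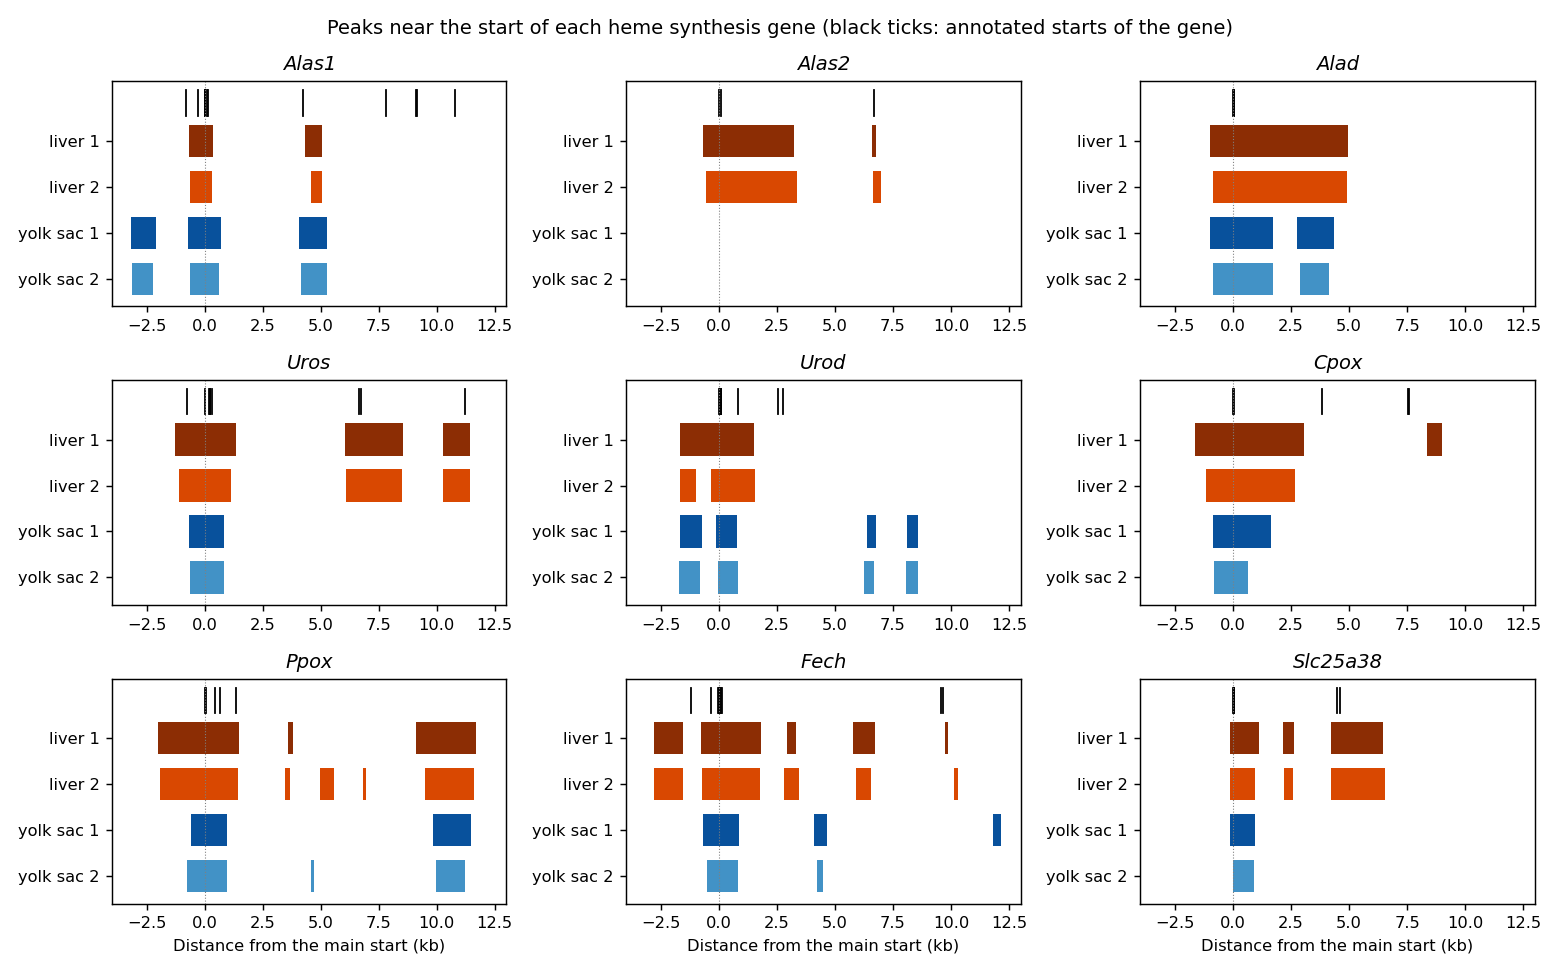
Peaks of the 4 libraries (coloured bars, one row per library) within 4 kb upstream and 13 kb downstream of the main start of each gene, in kb along the direction of transcription, with annotated starts of the gene as black ticks. Alas2 has peaks in the 2 liver rows only, and the internal starts of Uros and Slc25a38 are covered in liver alone.

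Slc25a38 (chromosome 9, 120110374 to 120124504, plus strand) imports glycine, the substrate of the first enzyme, into the mitochondrion. Its main start had a compact peak in every list, 1252 and 1052 bp wide in liver and 1052 and 902 bp in yolk sac, and the tissues overlapped. A further peak covered an internal group of starts 4476 to 4615 bp downstream, which includes the start of coding transcript Slc25a38-202, in both liver lists. It spanned 120114601 to 120116852 and 120114601 to 120116902, at the 60.1 and 53.1 percentiles. In yolk sac the nearest peak was 3548 and 3598 bp from those starts. A short liver-only region also lay in the intron between the start groups (120112501 to 120113002).

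Uros (chromosome 7, 133686243 to 133710072, minus strand) encodes uroporphyrinogen III synthase, which closes the tetrapyrrole ring. Its first starts lie within 52 bp from a start of Bccip on the other strand, and 1 peak covered both genes in each list, so that initiation of the genes cannot be told apart there. This peak was 2602 and 2252 bp wide in liver and 1502 and 1452 bp in yolk sac. An internal group of starts 6665 to 6743 bp downstream, with coding transcripts Uros-209 and Uros-210, had a peak of 2502 and 2402 bp in liver and none in yolk sac, where the nearest peak was 5835 bp away in both. A further peak of 1152 bp in both liver lists, from 133697851 to 133699002, covered the start of a noncoding transcript 11201 bp downstream and was also absent from the yolk sac lists. In both liver lists the 2 internal peaks had higher scores than the upstream peak: the percentiles were 52.4 and 43.0 at the upstream start, 76.3 and 55.6 at the internal coding starts, and 65.4 and 68.7 at the noncoding start.
The 25 bases shown for Uros hold the GATAA match (capitals, reverse strand) 68 bases before its internal RefSeq start (chr7:133702554-133702578, minus strand), 38 bp from the nearest GENCODE start of the group. The window before the upstream start holds no such match.
Uros: tccctcagccTTATCagtgacagag

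Start site use was then counted over the whole pathway. Starts of a gene within 500 bp of each other were joined into groups, which gave 30 groups for the 9 genes. Of these, 12 were called in all 4 libraries, 6 in both liver libraries only, 0 in both yolk sac libraries only, 11 in none and 1 in 3 libraries. Of the start groups of all protein-coding genes, 1.22% had the first of these tissue patterns and 4.99% the other. The liver-only groups were the first and the 6.7 kb group of Alas2, both internal groups of Uros, the internal group of Slc25a38 and an internal group of Fech. A liver-only group beside a group called in all 4 libraries was found at Uros, Slc25a38 and Fech, 3 of the 8 genes of the pathway with more than 1 group. The share among all such protein-coding genes was 2.29%, and 7.13% had a yolk-sac-only group beside a shared one, as none of the 8 did. When starts of protein-coding transcripts alone were used, the liver-only groups numbered 3, and when the midpoint of the peak had to lie in the window they numbered 2, with 2 yolk-sac-only. Groups of 1 gene share neighbouring peaks and are not independent.

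The call at the Fech internal group was the weakest of these. It rested on peaks of 102 and 202 bp at percentiles 3.52 and 11.4, which did not overlap each other and lay 113 and 463 bp from the starts. The group called in 3 libraries was the most upstream start of Fech, at -1188 bp from the main start. A peak from 64490601 to 64491852 lay 350 bp from it in both liver lists and had no counterpart in yolk sac, whose peaks at the main start ended 499 bp (replicate 1, counted) and 649 bp (replicate 2, not counted) from it.

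**Figure D2:**
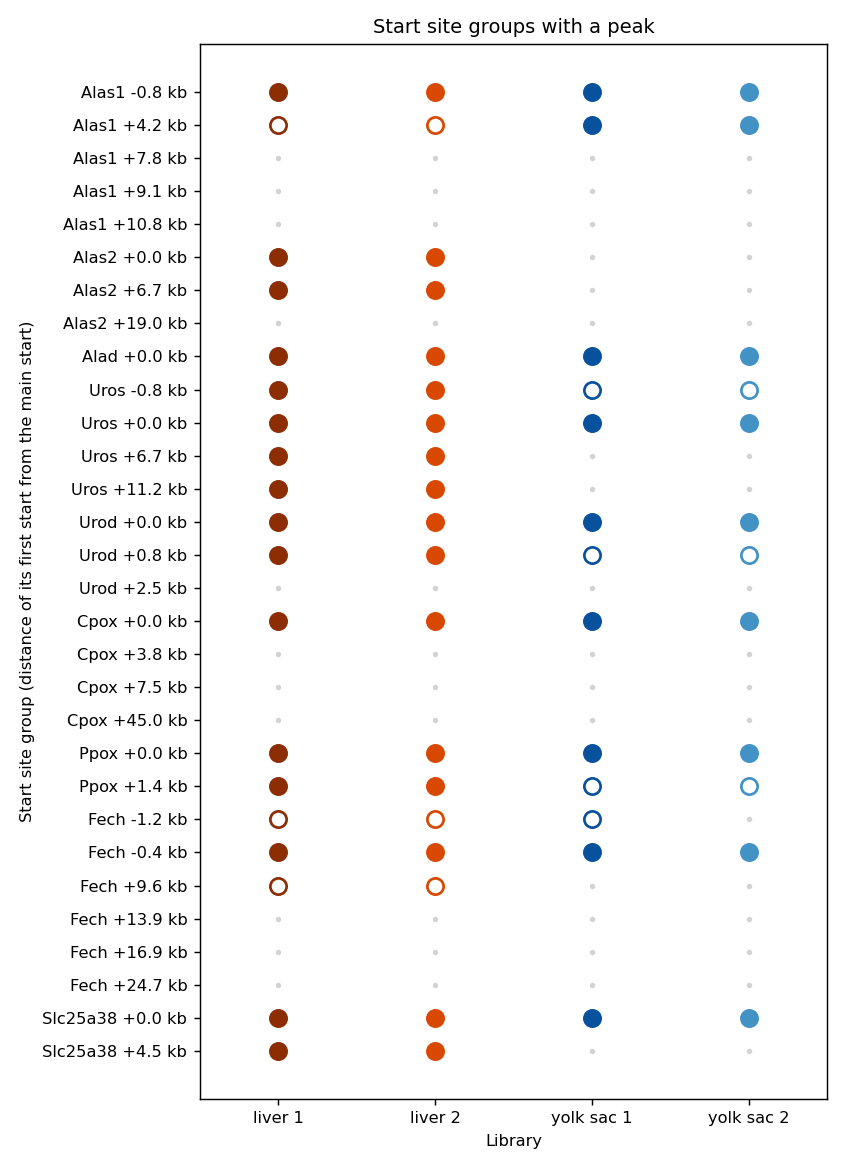
Start site groups of the 9 genes (rows, by the distance of their first start from the main start) in the 4 libraries (columns). Filled circles are groups with a start inside a peak, open circles groups with a peak within 500 bp, and dots groups without a peak; 6 groups are called in both liver libraries only and 0 in both yolk sac libraries only.

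The width of the promoter peak separated the tissues at most genes. At the main start, the peak was wider in both liver lists than in either yolk sac list at 6 of the 8 genes called in all 4 libraries (Alad, Uros, Urod, Cpox, Ppox and Fech), and narrower at 1, Alas1. Of 10496 protein-coding genes called at their main start in all 4 libraries, 20.9% were wider in both liver lists and 34.8% wider in both yolk sac lists. The median difference, liver minus yolk sac, was 1387.5 bp over the 8 genes and -50 bp over all genes. The main start was chosen for this comparison after the data were seen. With the best-scoring peak at any start, as planned, 4 of 8 genes were wider in liver (Alad, Urod, Cpox and Ppox) and 1 in yolk sac, against 20.9% and 34.5% of 11805 genes. At Uros and Fech, which dropped out, different starts of the gene held the best-scoring peak in the 2 liver lists. At Uros both of these were internal, against the upstream peak in yolk sac. The gene wider in yolk sac was Alas1, where the measure also compared different starts. Its best-scoring peak lay at the main start in liver (1052 and 952 bp) and at the internal start in yolk sac (1202 and 1102 bp). The 7 erythroid markers called in all 4 libraries were all wider in liver, and of the hepatocyte markers 1 was wider in liver and 3 in yolk sac. Of the yolk sac endoderm, mesenchymal and endothelial markers called in all 4 libraries (5, 4 and 4 genes), none was wider in liver, and 4, 4 and 3 were wider in yolk sac. The part of these cell types in the width difference was not tested.

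Alad (chromosome 4, 62509169 to 62519918, minus strand) encodes the enzyme that joins 2 molecules of aminolevulinate, and it had the widest peak of the pathway. The peak measured 5952 and 5802 bp in liver and 2702 and 2602 bp in yolk sac. Its mean was 5877 ± 106 bp in liver and 2652 ± 70.7 bp in yolk sac (SD, n = 2). The ratio of the means was 2.22 (exact permutation p = 0.333). The upstream edges were the same in the tissues, 984 and 884 bp before the main start in each pair. The difference lay downstream, where the liver peaks reached 4967 and 4917 bp and the yolk sac peaks 1717 bp in both lists. In yolk sac a separate peak followed, with its midpoint 3567 and 3492 bp downstream, inside the stretch that the liver peak covered. Whether nearby calls were joined in the liver lists cannot be told from the lists, in which peaks do not come closer than 548 bp. All 3 annotated starts of Alad lie within 37 bp of each other, so no annotated start marks this internal peak.

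Urod, Cpox, Ppox and Fech act after the ring is closed, in this order. Urod (chromosome 4, 116989965 to 116994413, minus strand), the uroporphyrinogen decarboxylase, had peaks of 3202 and 1902 bp in liver and 902 and 852 bp in yolk sac. The liver replicates differed by 1300 bp, since in replicate 1 the peak ran on to the start of Hectd3, 904 bp away on the other strand, while replicate 2 and both yolk sac lists had a separate peak there. Downstream the liver replicates were alike, reaching 1512 and 1562 bp, against 762 and 812 bp in yolk sac.

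Cpox (chromosome 16, 58670292 to 58717636, plus strand), the coproporphyrinogen oxidase, had peaks of 4702 and 3852 bp in liver and 2502 and 1502 bp in yolk sac, or 4277 ± 601 and 2002 ± 707 bp (SD, n = 2). The gap between the nearest libraries was larger than the spread within either tissue, and the liver peaks reached further both upstream and downstream. The 250 bases before its RefSeq start (chr16:58669958-58670207, plus strand) are shown because Cpox was the remaining gene with a GATAA match, in capitals on the reverse strand, 86 bases before the start.
Cpox: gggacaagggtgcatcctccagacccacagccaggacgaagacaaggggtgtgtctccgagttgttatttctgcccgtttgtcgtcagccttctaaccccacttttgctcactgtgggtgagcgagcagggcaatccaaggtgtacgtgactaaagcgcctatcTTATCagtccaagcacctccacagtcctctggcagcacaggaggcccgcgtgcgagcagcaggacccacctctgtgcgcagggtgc

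Ppox (chromosome 1, 171275990 to 171281186, minus strand), the protoporphyrinogen oxidase, had peaks of 3502 and 3352 bp in liver and 1552 and 1702 bp in yolk sac, with means of 3427 ± 106 and 1627 ± 106 bp (SD, n = 2). Most of the difference was on the upstream side, where the liver peaks reached 2016 and 1916 bp and the yolk sac peaks 616 and 766 bp. The upstream side carries a start of Usp21, 1720 bp away on the same strand, which the liver peaks included and the yolk sac peaks did not. Downstream the reach was 1485 and 1435 bp in liver and 935 bp in both yolk sac lists. The 250 bases before the Ppox start (chr1:171281187-171281436, minus strand) are shown because its rank differed most between tissues, as given below. They hold CCAAT 4 times on either strand (capitals; ATTGG is the reverse), a motif that 33.9% of windows hold at least once, and neither GATAA nor GGGCGG.
Ppox: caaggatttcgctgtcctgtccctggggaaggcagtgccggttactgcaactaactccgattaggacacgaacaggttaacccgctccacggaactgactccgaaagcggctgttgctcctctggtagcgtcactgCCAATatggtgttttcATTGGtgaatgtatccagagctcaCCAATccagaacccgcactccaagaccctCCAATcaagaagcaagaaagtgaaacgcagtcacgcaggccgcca

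Fech (chromosome 18, 64452914 to 64490251, minus strand), the ferrochelatase that inserts iron, had peaks of 2602 and 2502 bp in liver and 1552 and 1352 bp in yolk sac at the main start, 2552 ± 70.7 against 1452 ± 141 bp (SD, n = 2). The liver peaks reached 1812 and 1762 bp into the gene and the yolk sac peaks 862 and 812 bp. At 6 of the 8 genes the downstream reach was thus greater in both liver lists, and at 1 (Alas1) in both yolk sac lists. Of all genes called at the main start, 22.4% and 31.2% did so. The upstream reach was greater in both liver lists at 5 of the 8 genes and in both yolk sac lists at 0, compared with 15.0% and 31.9% of all genes. The 5 were Uros, Urod, Cpox, Ppox and Fech. At Fech the gap was small, with 789 and 739 bp in liver against 689 and 539 bp in yolk sac. A start of another gene lay under the peak at Uros (Bccip, all lists), Ppox (Usp21, both liver lists) and Urod (Hectd3, liver replicate 1).

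**Figure D3:**
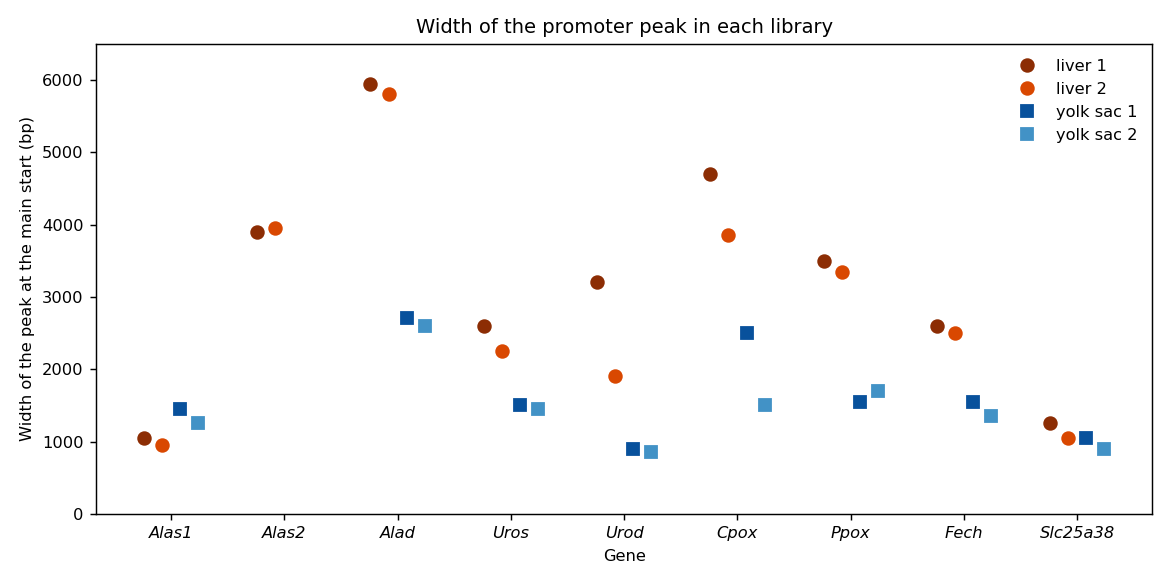
Width in bp of the peak at the main start of each gene, with 1 point per library (circles, liver; squares, yolk sac); Alas2 has no peak there in yolk sac. The liver points lie above the yolk sac points at Alad, Uros, Urod, Cpox, Ppox and Fech, below them at Alas1, and overlap with them at Slc25a38.

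The rank of the promoter peak was compared next. Because the lists differ in length, the scores were ranked within the same 11805 genes in each library, those with a promoter peak in all 4, and given as percentiles. By the best-scoring peak at any start, Alad, Urod and Ppox ranked higher in both liver lists and none of the 8 genes ranked higher in both yolk sac lists. Over all genes the shares were 30.9% and 25.7%, and the smallest adjusted p over all genes was 0.589 (exact permutation test, Benjamini-Hochberg). The median difference was 7.0 percentile points over the 8 genes and 1.95 over all genes. Without yolk sac replicate 2, 5 genes ranked higher in liver, and leaving out any 1 library gave 1 or 2 genes that ranked higher in yolk sac.

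Ppox had the widest gap, with percentiles of 81.0 and 93.5 in liver and 19.3 and 35.2 in yolk sac, a difference of 60.0 points (87.2 ± 8.82 against 27.2 ± 11.3, SD, n = 2). Urod stood at 36.7 and 18.4 in liver and at 2.78 and 1.15 in yolk sac, near the bottom of the ranking. In the ranking of as many top peaks per list as the shortest list holds, the Urod promoter peaks of both yolk sac lists dropped out, and Urod became liver-only. Alad stood at 94.5 and 89.9 in liver and at 64.8 and 89.4 in yolk sac, and its nearest libraries nearly met. Alas1, Uros, Cpox, Fech and Slc25a38 overlapped between the tissues.

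At the main start alone, ranked over 10496 genes, the order at several genes differed. Alas1 stood at 72.6 and 54.2 in liver and at 24.9 and 34.2 in yolk sac, since its internal peak was no longer counted. Uros was lower in liver, at 24.9 and 13.1 against 46.5 and 66.7, and so was Fech, at 21.8 and 17.3 against 56.8 and 34.8. At these genes the liver peak was thus wider and lower in rank than the yolk sac peak. With this measure 4 genes (Alas1, Alad, Urod and Ppox) ranked higher in both liver lists and 2 in both yolk sac lists, against 30.8% and 25.7% of all genes called there.

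**Figure D4:**
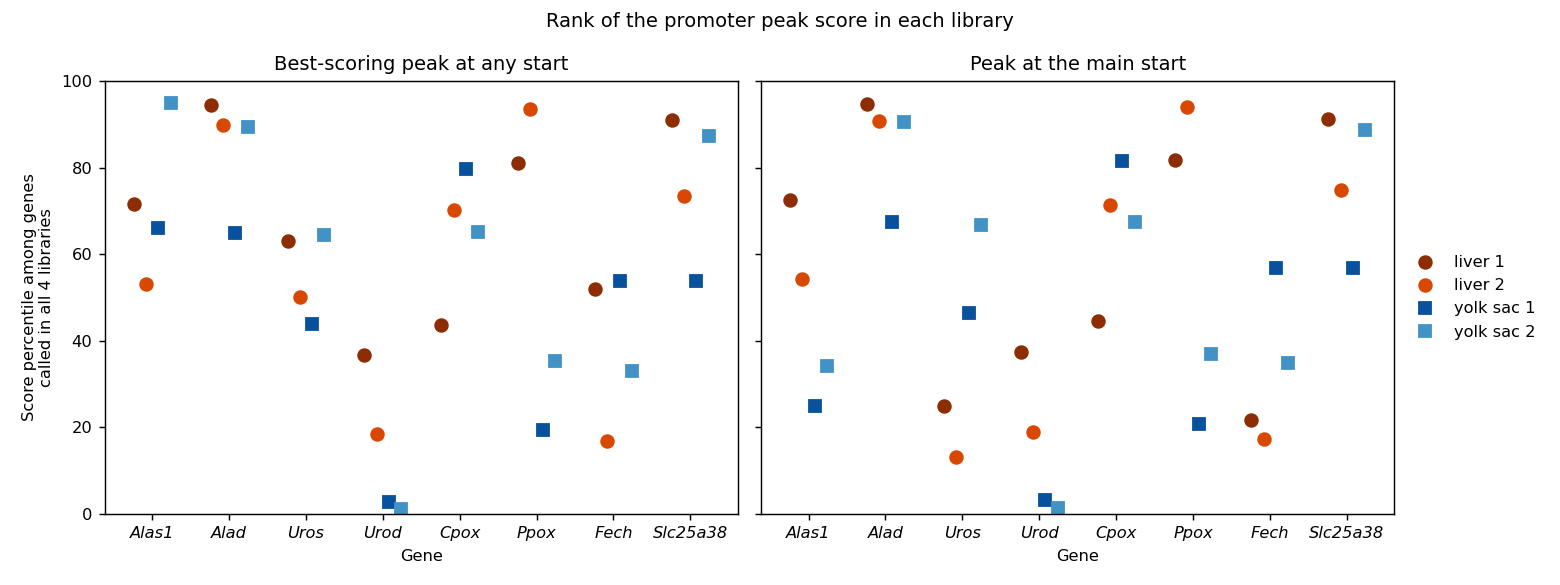
Percentile of the promoter peak score among genes called in all 4 libraries, for the 8 genes with a promoter peak in each list (1 point per library; circles, liver; squares, yolk sac), by the best-scoring peak at any start (left) and by the peak at the main start (right). Ppox and Urod lie higher in both liver lists in either panel, and Uros and Fech lie lower in both liver lists in the right panel only.

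Peaks away from promoters were examined in the genes and within 20 kb of them. Peaks that touched no promoter window of any gene numbered 10 and 12 in the liver lists, while the yolk sac lists held 17 and 14. The means were 11 ± 1.41 and 15.5 ± 2.12 (SD, n = 2; exact permutation p = 0.333), and each yolk sac list held 1 such peak at the downstream part of Alad that the liver promoter peak covered. Among as many top-scoring peaks per list as the shortest list holds, the difference turned from -4.5 to 6.5 peaks. Merging the lists gave 29 distal regions, of which 6 were liver-only, 7 yolk-sac-only, 1 in all 4 libraries and 15 in other patterns. Over the whole genome, 3424 of 42751 merged distal regions were liver-only and 17232 yolk-sac-only. With lists of equal length no yolk-sac-only region was left. Of the 9 genes, 4 had a liver-only and 5 a yolk-sac-only distal region. The shares over all protein-coding genes were 14.1% and 38.1%, for genes of all lengths.

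The liver-only distal regions with the highest scores lay upstream of Cpox, outside annotated genes. One spanned 58658301 to 58659452, 11.4 kb before the main start, and stood at percentiles 75.5 and 92.5. The other spanned 58661151 to 58662952, 8.24 kb before the start, at the 73.9 and 92.6 percentiles. In yolk sac, Cpox instead had a region far inside the gene, in an intron 33.5 kb downstream (58703351 to 58704302), at percentiles 42.6 and 51.7.

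Fech had liver-only regions 3.14 kb (64485601 to 64486252) and 6.24 kb (64482351 to 64483302) downstream of the main start, with a yolk-sac-only region between them (64484401 to 64484952). The region at 6.24 kb stood at percentiles 51.8 and 47.9, and the yolk-sac-only region at 24.4 and 9.26. A liver-only region in the last part of Ppox (171277401 to 171277752) was near the lower end of both lists, at the 15.3 and 5.42 percentiles.

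Alas1 had 4 distal regions, of which 2 were yolk-sac-only and 0 liver-only. The yolk-sac-only regions lay 2.65 kb upstream (106249951 to 106251052), at the 57.2 and 38.9 percentiles, and 17.5 kb downstream of the main start, beyond the end of the gene (106230001 to 106230702), at the 51.4 and 19.8 percentiles. A further region beyond the end of the gene, in Tlr9 (106225751 to 106226952), was called in both yolk sac lists, at the 92.0 and 94.2 percentiles, and in liver replicate 2 at the 13.4 percentile. The remaining one, 13.4 kb upstream of the main start, was called in liver replicate 2 alone. The yolk-sac-only regions counted for Urod and Alad lay beyond the ends of these genes, within Zswim5 and Bspry, and need not belong to them. Uros had no distal region, and the 1 distal region near Alas2, from a single yolk sac list, lay within Apex2. At the starts of the 9 genes themselves, 9 merged regions were in all 4 libraries, 6 liver-only, 0 yolk-sac-only and 2 in other patterns. The 6 liver-only regions came from 4 genes and include the peak upstream of Fech described above. The shares of such regions over all genes were not computed, so these counts have no background beside them.

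**Figure D5:**
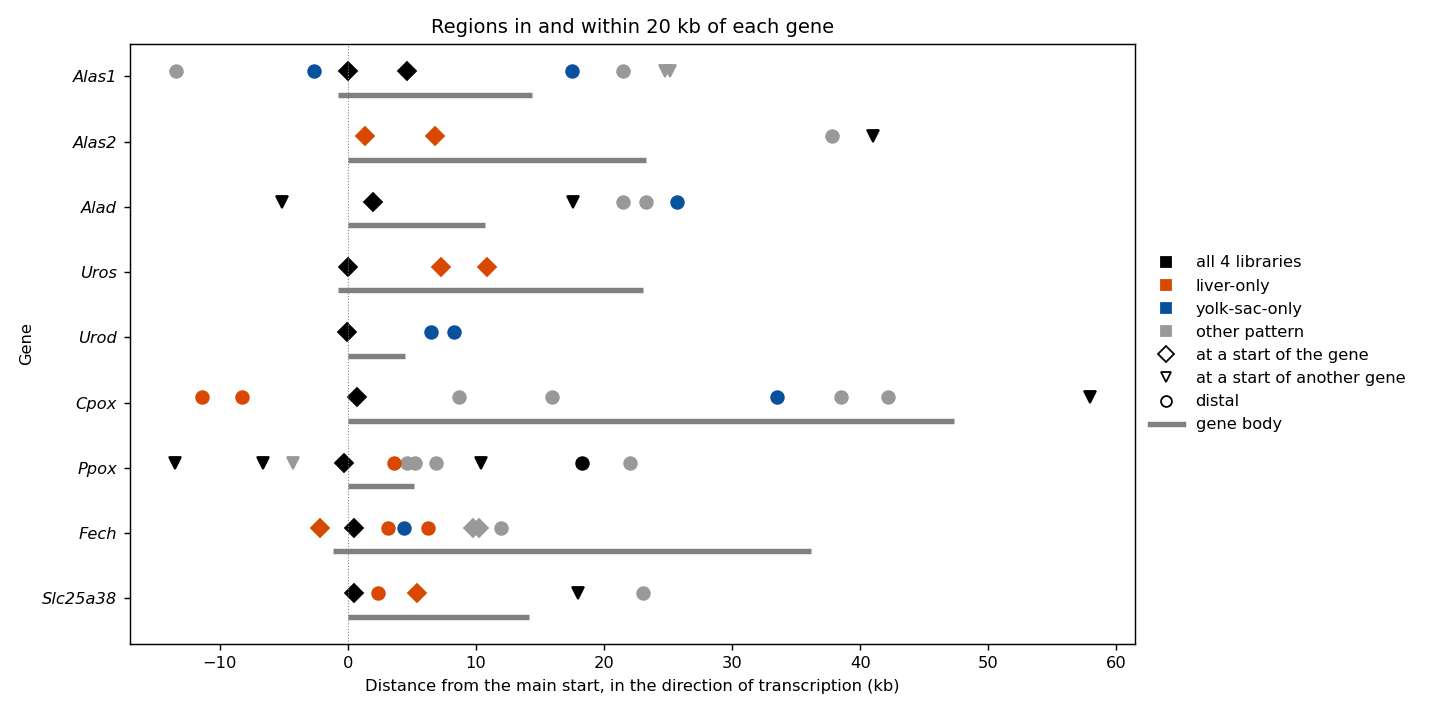
Merged regions in each gene and within 20 kb of it, by the distance of their middle from the main start in kb along the direction of transcription; colour gives the libraries that called the region and shape its place (at a start of the gene, at a start of another gene, or distal). Liver-only regions lie at Alas2, Uros, Cpox, Ppox, Fech and Slc25a38, and yolk-sac-only regions at Alas1, Alad, Urod, Cpox and Fech.

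Other genes that supply, move, sense or break down heme were examined as a list of 28. The same 27 of them had a promoter peak in all 4 lists, so no gene of this list was called in 1 tissue only. Of all protein-coding genes, 53.8% were called in all 4 libraries, 1.01% in both liver libraries only and 5.25% in both yolk sac libraries only. For the remaining gene, Slc25a37, the lists used here hold no peak of any kind at or around the gene, so nothing is read from the missing call. The promoter peak was wider in both liver lists at 15 of the 27 genes and wider in both yolk sac lists at 5, against 20.9% and 34.5% of all genes. Among the wider ones in liver were Tmem14c, which is needed for moving a heme precursor in the mitochondrion (5602 and 5952 bp in liver, 2252 and 2002 bp in yolk sac), and Glrx5, which serves iron-sulfur cluster assembly (5002 and 5102 against 2852 and 2952 bp). These 2 were chosen after their values were seen. By rank, 10 genes were higher in both liver lists and 8 in both yolk sac lists, against 30.9% and 25.7% of all genes.

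The widest gaps in rank on the liver side were at Slc48a1, a heme transporter, at Abcb6, a porphyrin transporter, and at Ireb2, an iron sensor. Slc48a1 stood at the 73.3 and 86.9 percentiles in liver and at 0.754 and 0.347 in yolk sac, where its peaks were 702 and 352 bp wide against 2802 bp in both liver lists. Abcb6 stood at 96.9 and 73.8 in liver and at 18.8 and 23.4 in yolk sac. Ireb2 stood at 78.7 and 62.9 in liver and at 24.2 and 5.29 in yolk sac. On the yolk sac side the gaps were smaller: Hmox2, a heme oxygenase, stood at 17.1 and 39.8 in liver and at 70.6 and 65.9 in yolk sac. Tmem14c had the next gap, but its tissues overlapped, at 30.8 and 64.4 in liver and 63.4 and 92.1 in yolk sac.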

How the data were processed

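PRO-seq libraries from 2 liver and 2 yolk sac pools were analysed from 1 peak list per library. Bowtie2, bedtools and the build mm10 are named in the submitters' processing notes, without roles or versions. The peak caller, dREG, is known from the names of the deposited lists; its version and filters are not given in the sources used here. The deposited score of each peak has no unit and ran from 0.800 to 1.45. Whether the authors scaled it between libraries is not given, so it was used only for ranks within a list. Starts came from GENCODE M21 (GRCm38, the same assembly), and promoter sequences from RefSeq. Positions are 1-based. Computation used Python 3.11.15, numpy 2.4.6, scipy 1.17.1 and matplotlib 3.10.9. Overlapping peaks (1 bp or more) of the 4 lists were joined into regions. A region or gene is liver-only when called in both liver libraries and neither yolk sac library. Groups were compared by exact permutation. On simulated lists, all of 200 planted genes of each of 4 kinds were recovered. The planted genes were isolated and had a single annotated start. Their recovery checks the code and says nothing of genes with several starts or shared peaks. The members, lists and tests were chosen with earlier results of these data known. All 9 members are named; of the other heme genes, those called in 1 tissue only and the 3 with the widest rank gap in each direction, except items that are not reported here. Motifs were searched on both strands. For GATA factors these were GATAA and the longer AGATAA, which contains it. For Krüppel-like factors the search used CACCC and, as a longer form that contains it, CCACACCC. The other motifs were the NRF1 palindrome, the GC box (GGGCGG) and the CCAAT box. The TATA box was searched as TATAAA. The NFE2 core was searched as TGANTCA. Endothelial markers had promoter peaks at 4 and 6 of 6 genes in liver and 6 and 6 in yolk sac. Whether libraries came from separate litters is not given, so the spread may be technical. Alternatives are described in the closing section.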

Additional observations from a re-analysis of the deposited data

How the results depend on the processing

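With 2 libraries per tissue no test could pass a threshold, so counts are called moved beyond 1.5 times and differences beyond 1 SD; depth is unknown. Of 189 recalculated values for single genes, 176 stayed and 13 moved; without 1 liver replicate the width differences of Uros and Fech changed sign within that spread (-325 and -200 bp). When the peak midpoint had to lie in the promoter window, the difference in genes called turned from 1 to -1 and 2 genes were yolk-sac-only: the liver peaks of Alad and Cpox were so wide that their midpoints lay 1992, 2017, 709 and 734 bp downstream of the start. Liver-only start groups were then 2 and yolk-sac-only groups 2, 2 genes were wider in yolk sac, and 1 ranked higher there. With equal list length the difference in genes called was 2, liver-only genes 2, the distal difference 6.5 and yolk-sac-only distal regions 0. With the higher-scoring 50% of each list, 1 gene ranked higher in liver and 2 in yolk sac, the distal difference was -1, liver-only and yolk-sac-only distal regions were 2 and 1, and yolk-sac-only start groups 1. With starts of protein-coding transcripts only, liver-only start groups were 3 and the distal difference -2. A window of 250 bp gave a distal difference of -2.5 and 1 gene ranked higher in yolk sac. A flank of 50 kb gave a distal difference of -8, 12 liver-only and 14 yolk-sac-only regions. The widest promoter peak gave 7 genes wider in liver and 3 ranked higher in yolk sac; the main start, added after the data were seen, gave 2 ranked higher in yolk sac. The cause of these shifts was not tested otherwise.

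Leaving out each library in turn gave 3 to 5 genes ranked higher in liver (5 without yolk sac replicate 2), 1 to 2 ranked higher in yolk sac (none in the full set), 1 to 2 wider in yolk sac (2 with either liver replicate left out) and 8 to 12 yolk-sac-only distal regions (12 without yolk sac replicate 2). The replicate numbers were also used as a block. The correlation of same-numbered libraries' deviations from their tissue mean was -0.0123 over 11805 genes, so the labels' numbers were not taken to pair the libraries; with the replicate block 1 gene ranked higher in yolk sac, and the differences in genes called (1) and distal peaks (-4.5) kept their values (exact permutation p = 0.5, the smallest a block allows).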
